A study of Mus musculus with 32 samples.

Results

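The genes described here are 10 p53 response genes of the mouse, Trp53, Mdm2, Cdkn1a, Ccng1, Trp53inp1, Bbc3, Phlda3, Eda2r, Btg2 and Bax. They were taken by name from the 55385 genes listed in each of 16 total RNA-seq libraries of preimplantation embryos, and all 10 were found. The embryos were wild type and came from in vitro fertilization of B6D2F1/J oocytes with B6D2F1/J sperm, both taken from mice 6 to 8 weeks old. A-485, an inhibitor of the acetyltransferase activity of CBP and p300, was given at 10 µM from 4 to 20 h post in vitro fertilization (hpi), and its control embryos received the solvent DMSO. Libraries of this experiment were made from zygotes, from early 2-cell embryos at the end of the treatment window and from late 2-cell embryos after the inhibitor had been washed off. Trichostatin A (TSA), an inhibitor of histone deacetylases, was given at 50 nM from 8 to 28 hpi, and libraries of TSA embryos and their own DMSO controls were made at the late 2-cell stage. These 8 groups held 2 libraries each. As the study describes, both treatments arrest development, which limits the treated late 2-cell embryos as a match in stage to their controls. The number of embryos per library is not given in the labels, and nothing in the labels says that the 2 libraries of a group came from separate cultures, so the p-values measure the spread between these libraries, which may be technical.

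p53, the product of Trp53, is a transcription factor that binds a DNA element in or near its target genes after DNA damage and other stresses. Its targets act in cell cycle arrest, DNA repair, metabolism and apoptosis, and one of them, Mdm2, encodes the ubiquitin ligase that marks p53 for degradation and so closes a negative feedback loop. CBP and p300 acetylate histones and p53 itself and serve as coactivators, while histone deacetylases remove these marks. The mouse zygote starts with maternal RNA, and its own genome is transcribed in a minor wave from the late 1-cell stage and in a major wave at the late 2-cell stage, which is called zygotic genome activation.

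The libraries held between 13206163 and 32585987 expected counts. Levels are given as CPM, the count divided by the library size, with library sizes scaled by TMM over all 16 libraries. The 10 oocyte and embryo markers examined (among them Zp3, Gdf9 and Nlrp5) were each at 1 FPKM or more in every group, where FPKM also divides by the length of the transcript. Their summed level was 1490 to 1500 FPKM in late 2-cell A-485 libraries against 804 to 864 in DMSO, and 789 to 824 under TSA against 623 to 643 in its controls. Markers of cumulus cells summed to between 2.18 and 14.1 FPKM per library. The highest single values were 12.7 FPKM for Amhr2 and 5.91 for Cyp19a1, and only Lum had 0 counts throughout. At the late 2-cell stage the cumulus sum was 7.85 to 12.5 FPKM in DMSO against 4.45 to 4.61 under A-485. In the TSA controls it was 12.2 to 14.1 FPKM against 4.29 to 5.09 under TSA. Markers of sperm summed to between 64.2 and 153 FPKM per library, with Odf2 at 62.9 to 145 and Prm2 at up to 18.8. At the late 2-cell stage the sperm sum was 64.2 to 75.8 FPKM in DMSO against 80.4 to 82.1 under A-485. In the TSA controls the sperm sum was 66.2 to 68.9 FPKM against 98.5 to 99.4 under TSA. The summed level of 9 markers of the 2-cell embryo (Zscan4c, Zfp352 and Duxf3 among them) also moved with treatment. It was 677 to 767 FPKM in early 2-cell DMSO libraries against 30.9 to 34.0 under A-485, 413 to 421 against 102 to 109 at the late 2-cell stage, and 249 to 292 in the TSA controls against 668 to 748 under TSA. Mitochondrially encoded genes took 4.34% to 5.00% of the counts in zygotes, 10.5% to 12.5% in all 2-cell DMSO libraries, 15.5% to 16.3% under TSA and 19.5% to 20.7% in late 2-cell A-485 embryos. The part of these shifts in the results that follow was not tested.

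The 10 genes lie on 7 chromosomes. The p53 response element consists of 2 arms of 10 bases, and windows of 5 kb on each side of the most upstream annotated start site were searched on both strands for a pair of arms without spacer, with the C and G of each core intact and at most 2 mismatches. Of the 10 genes, 2 held a match with at most 1 mismatch, which 1.7% of 21884 genes also held, and 4 held a match with at most 2 mismatches, against 9.78% of those genes. The matches are shown because the element is the sequence that p53 is known to bind, with the core of each arm in capitals and coordinates in GRCm38.
Cdkn1a, chr17:29090928-29090947, 1 mismatch, 38 bp upstream of the start: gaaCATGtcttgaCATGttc
Ccng1, chr11:40755462-40755481, 1 mismatch, 160 bp upstream of the start: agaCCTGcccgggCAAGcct
Ccng1, chr11:40754936-40754955, 1 mismatch, intronic and 366 bp downstream: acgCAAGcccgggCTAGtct
Bax, chr7:45466574-45466593, 2 mismatches, exonic and 314 bp downstream: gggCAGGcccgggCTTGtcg
Eda2r, chrX:97376534-97376553, 2 mismatches, intronic and 672 bp downstream: gggCAAGtccgggCCTGtgt
These are matches of letters in the reference, each read 5′ to 3′ on the strand of its gene, and not measured binding sites. No match within these windows was found for the other 6 genes under the same rule.

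Promoter sequences from RefSeq (GRCm38.p6), running from 250 bases before to 50 bases after a start, were matched by symbol for 9 of the 10 genes, all but Trp53inp1. A GC box, GGGCGG or CCGCCC on the printed strand, occurred in 35.66% of all 32851 promoters of the table, and the median promoter held 7 CpG dinucleotides. Cdkn1a is shown at both of its listed starts because the start with the p53 element and the start with open chromatin are different ones. The upstream Cdkn1a promoter, with the element in capitals, held 2 CpG and no GC box.
Cdkn1a upstream promoter, chr17:29090729-29091028, plus strand: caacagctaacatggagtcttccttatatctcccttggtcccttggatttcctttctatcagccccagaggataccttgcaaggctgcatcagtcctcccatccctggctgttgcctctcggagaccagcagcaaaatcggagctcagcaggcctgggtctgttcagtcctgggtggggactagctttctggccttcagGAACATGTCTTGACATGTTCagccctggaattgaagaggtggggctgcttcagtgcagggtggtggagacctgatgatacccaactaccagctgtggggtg
The downstream Cdkn1a promoter held 23 CpG and 2 GC boxes, which are in capitals.
Cdkn1a downstream promoter, chr17:29093519-29093818, plus strand: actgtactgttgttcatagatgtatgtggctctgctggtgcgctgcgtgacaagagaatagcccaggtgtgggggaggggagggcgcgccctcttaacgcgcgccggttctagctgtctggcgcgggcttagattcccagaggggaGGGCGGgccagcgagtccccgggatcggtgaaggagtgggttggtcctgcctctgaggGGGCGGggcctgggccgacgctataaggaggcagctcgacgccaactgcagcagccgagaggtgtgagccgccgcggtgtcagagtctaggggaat
The promoters of Ccng1 and Btg2 are given because these genes were among the most raised under TSA. The promoter of Eda2r, which had the largest fold change under TSA, held 5 CpG and 1 GC box and is not printed. The Ccng1 promoter, with its element in capitals, held 14 CpG and no GC box, while the Btg2 promoter, with GC boxes in capitals, held 32 CpG and 3 GC boxes.
Ccng1 promoter, chr11:40755237-40755536, minus strand: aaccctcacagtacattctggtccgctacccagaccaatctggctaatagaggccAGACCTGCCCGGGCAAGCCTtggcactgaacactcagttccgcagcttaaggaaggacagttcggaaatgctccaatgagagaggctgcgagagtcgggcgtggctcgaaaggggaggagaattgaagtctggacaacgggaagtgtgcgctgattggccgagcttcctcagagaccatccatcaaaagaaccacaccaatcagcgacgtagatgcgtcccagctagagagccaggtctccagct
Btg2 promoter, chr1:134079106-134079405, minus strand: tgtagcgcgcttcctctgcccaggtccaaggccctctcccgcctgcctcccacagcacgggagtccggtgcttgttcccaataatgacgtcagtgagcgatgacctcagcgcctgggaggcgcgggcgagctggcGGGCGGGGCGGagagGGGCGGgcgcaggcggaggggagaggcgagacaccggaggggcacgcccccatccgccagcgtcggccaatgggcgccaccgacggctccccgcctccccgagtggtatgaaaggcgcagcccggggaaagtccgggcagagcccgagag

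Open chromatin at these starts was available as 1 ATAC-seq peak list per stage and treatment, each for 2 replicates of late 1-cell or early 2-cell embryos together. Replicates could therefore not be compared and no test was made. The paper states that its own work used peaks that were replicated by IDR, a filter on reproducibility between replicates. A peak within 1 kb of an annotated start was listed for 3 of the 10 genes in late 1-cell DMSO embryos, 4 in late 1-cell A-485 embryos, 5 in early 2-cell DMSO embryos and 7 in early 2-cell A-485 embryos. The share of 22015 protein-coding genes with such a peak was 26.1%, 24.61%, 31.63% and 40.81%. The lists differ in size, with 10214, 7094, 27693 and 13712 peaks. With the 7094 strongest peaks of each list the counts were 2, 4, 1 and 4 of the 10 genes. The shares of the 22015 genes were then 19.65%, 24.61%, 9.0% and 24.68%.

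Ccng1 had a peak over its start in all 4 lists, and the upstream element lay inside it each time. The Ccng1 peak had a fold enrichment of 8.48 and 5.61 in late 1-cell DMSO and A-485 embryos, and of 8.23 and 12.1 in early 2-cell DMSO and A-485 embryos. At Cdkn1a no list held a peak at the upstream start with the element. Peaks instead covered the downstream start, 2793 bp away, in both late 1-cell lists and in the early 2-cell A-485 list, with fold enrichments of 4.9, 5.53 and 4.86. In early 2-cell DMSO embryos Cdkn1a had peaks from 5736 to 6843 bp and from 6984 to 7628 bp, on both sides of its most downstream start. Btg2 was listed only in early 2-cell A-485 embryos (chr1:134078991-134079491, fold enrichment 7.95), and Bbc3, Phlda3 and Bax had no peak within 1 kb in any list. The peaks listed for Trp53 in 3 lists lay 756 to 797 bp away, over the start of its neighbour Wrap53 on the other strand.

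**Figure D1:**
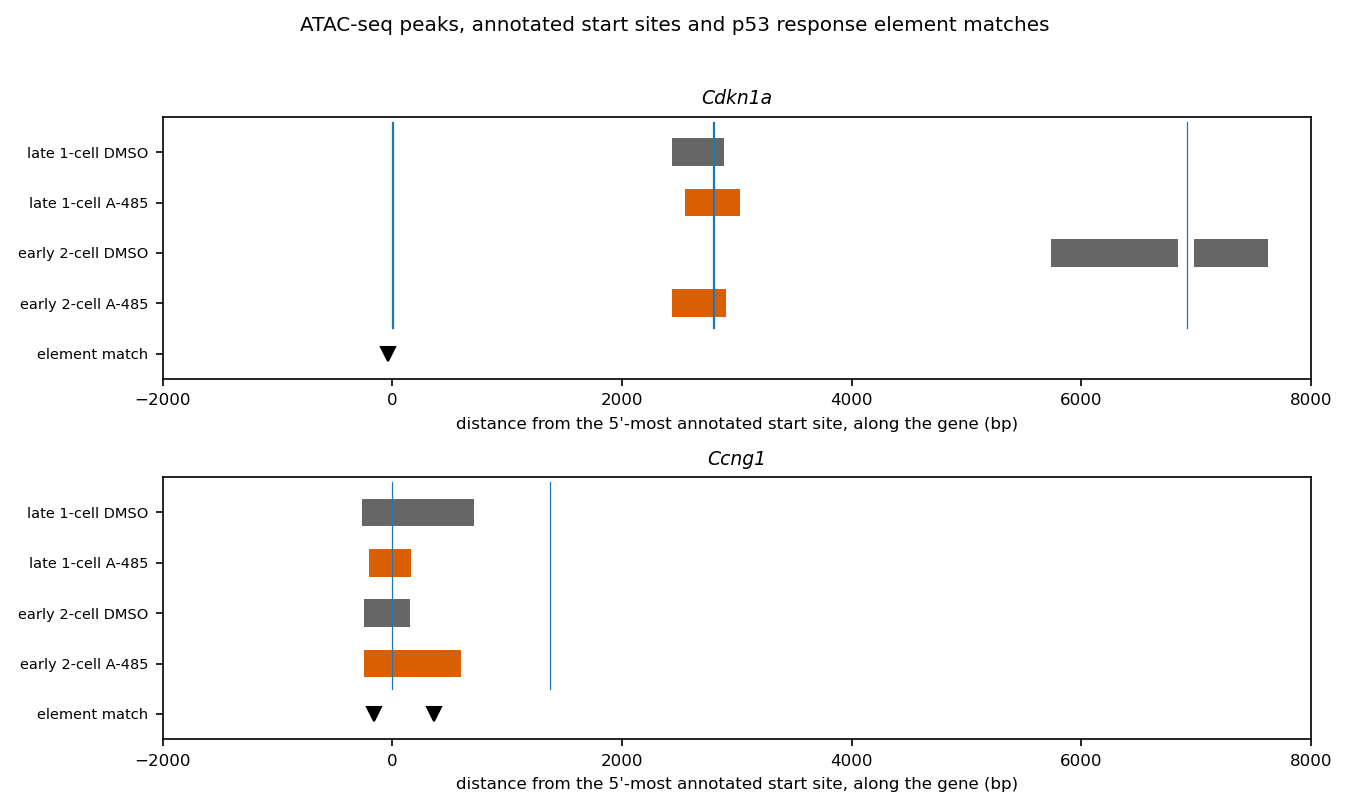
Maps of Cdkn1a and Ccng1, with the distance in bp from the most upstream annotated start site on the horizontal axis and 1 line for each ATAC-seq peak list. Boxes are peaks, ticks are annotated starts and the marked points are p53 element matches; at Ccng1 the upstream match lies within a peak in all 4 lists, and at Cdkn1a the match lies outside every peak.

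In DMSO embryos the members were expressed at very different levels. By FPKM, which allows genes to be compared, Mdm2 led in every group (111 FPKM in zygotes, 106 in early 2-cell and 132 in late 2-cell DMSO embryos of the A-485 experiment) and Trp53inp1, a stress-induced cofactor of p53, came next with 34.6, 50.8 and 47.6. Trp53 itself was at 12.8 FPKM in zygotes. Phlda3, which encodes an inhibitor of AKT signalling, was not detected in any of the 8 DMSO libraries, where a count of 0 allows up to 3 counts per library, and had at most 3 counts in any treated library. It passed the filter on low counts in no comparison, so at most 9 of the 10 genes could be tested.

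Trp53 (chr11:69580359-69591873) had its highest group means in zygotes, with 20.2 and 19.4 CPM in the DMSO libraries and 24.4 and 16.4 under A-485. The early 2-cell DMSO libraries had 10.7 and 17.3 CPM and the A-485 libraries 10.2 and 11.1, so that the treated and control ranges overlapped. At the late 2-cell stage the 2 DMSO groups had 8.69 and 6.93 CPM (A-485 experiment) and 14.6 and 10.6 CPM (TSA experiment). A-485 embryos had 12.7 and 9.3 CPM, and TSA embryos had 7.89 and 8.16. The level of TSA embryos was below both of its own controls but within the range of the other control group.

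Mdm2 (chr10:117688875-117710758) had 187 and 188 CPM in zygote DMSO libraries and 187 and 197 under A-485. Early 2-cell libraries had 199 and 167 CPM in DMSO and 178 and 182 under A-485, again with overlapping ranges. At the late 2-cell stage Mdm2 separated by treatment, with 251 and 241 CPM in DMSO against 114 and 115 under A-485, and 234 and 227 CPM in DMSO against 120 and 140 under TSA.

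Cdkn1a (chr17:29090976-29100727), which encodes the cyclin-dependent kinase inhibitor p21, started near 0 with 1.27 and 1.65 CPM in zygote DMSO libraries and 1.53 and 1.04 under A-485. It reached 8.11 and 8.42 CPM in early 2-cell DMSO libraries against 4.15 and 1.91 under A-485. Late 2-cell DMSO libraries had 16.2 and 14.0 CPM against 9.52 and 4.74 under A-485, and the TSA controls 15.9 and 18.8 against 61.6 and 53.9 under TSA. Cdkn1a was thus below its controls in both 2-cell groups treated with A-485 and above them under TSA.

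Ccng1 (chr11:40748552-40755311), which encodes cyclin G1, had 4.99 and 3.06 CPM in zygote DMSO libraries and 5.02 and 3.28 under A-485. Early 2-cell libraries had 18.2 and 21.6 CPM in DMSO and 15.8 and 15.4 under A-485. Late 2-cell libraries had 14.2 and 14.8 CPM in DMSO against 30.0 and 32.0 under A-485, and 16.6 and 14.5 against 74.7 and 79.6 under TSA. Both treatments placed late 2-cell Ccng1 above every control library.

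Btg2 (chr1:134075170-134079120), an antiproliferative gene that recruits the RNA deadenylase complex, had 16.6 and 15.7 CPM in zygote DMSO libraries, 11.0 and 11.5 in early 2-cell DMSO libraries and 8.81 and 7.86 under A-485. At the late 2-cell stage it had 20.0 and 11.3 CPM in DMSO and 11.1 and 7.97 under A-485. In the TSA experiment the controls had 12.9 and 14.0 CPM and the TSA libraries 118 and 116, far outside the range of the other 14 libraries.

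Among the genes of apoptosis, Bbc3 (chr7:16308393-16318205), which encodes the BH3-only protein PUMA, was read from very few counts, with 1 and 0 in zygote DMSO libraries, 9 and 6 in early 2-cell DMSO libraries and 1 and 1 in early 2-cell A-485 libraries. In late 2-cell embryos it had 0.46 and 1.64 CPM in DMSO, 2.1 and 1.45 under A-485, 2.56 and 1.64 in the TSA controls and 6.97 and 5.66 under TSA. Eda2r (chrX:97333840-97377216), a receptor of the TNF receptor superfamily, had 0 counts in all 4 zygote libraries, 27 and 19 in early 2-cell DMSO libraries and 22 and 8 under A-485. Late 2-cell Eda2r counts were 25 and 0 in DMSO and 11 and 17 under A-485, while TSA raised them from 26 and 28 to 317 and 252. Bax (chr7:45461697-45466898), which forms pores in the mitochondrial outer membrane, had 5.4 and 5.31 CPM in zygote DMSO libraries, 1.32 and 0.71 in early 2-cell DMSO libraries and 1.7 and 2.68 in early 2-cell A-485 libraries. The early A-485 libraries lay above both of their controls, and the difference was not called (edgeR adjusted p = 0.335). In the TSA experiment Bax had 4.1 and 4.31 CPM in DMSO against 0.82 and 1.02 under TSA. Trp53inp1 (chr4:11156431-11174379) stayed between 171 and 328 CPM in all 16 libraries.

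**Figure D2:**
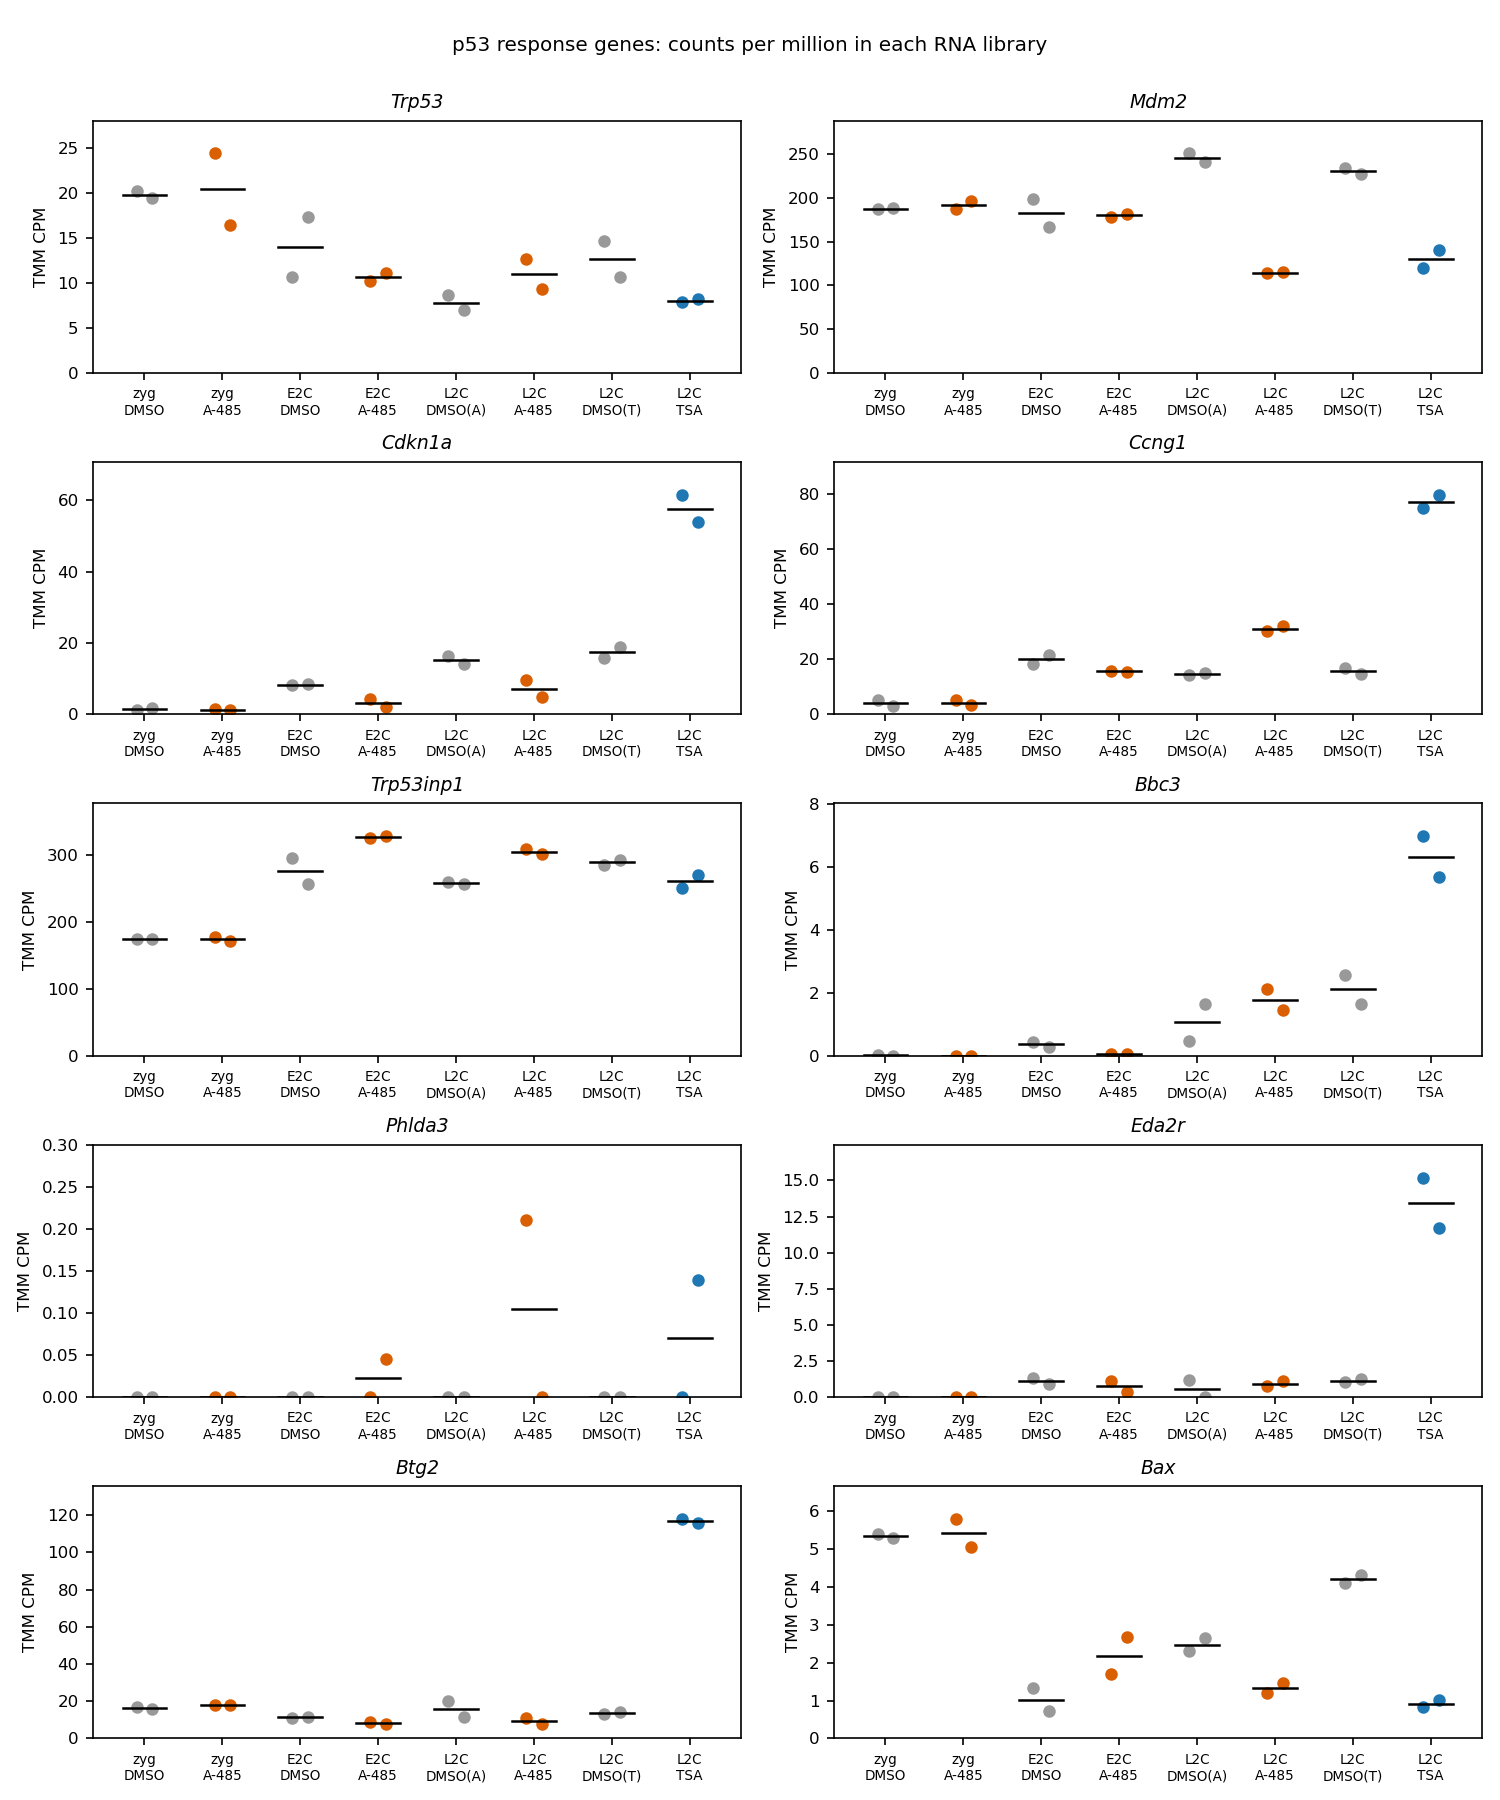
Level of each p53 response gene in TMM-scaled CPM (vertical axis, linear from 0, with its own range for each gene) in the 2 libraries of each of the 8 groups (points; the line marks the group mean). Cdkn1a, Ccng1, Btg2, Bbc3 and Eda2r are highest under TSA, whereas Mdm2 is lowest under A-485 and TSA at the late 2-cell stage.

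Between zygotes and early 2-cell embryos in DMSO, Cdkn1a and Ccng1 rose while Bax fell. A gene was called when its Benjamini-Hochberg adjusted p from edgeR's quasi-likelihood test was under 0.05, its change at least 2-fold and its mean FPKM at least 1 in either group. By this rule 3 of 9 members tested rose and 1 fell, against 11.2% and 14.9% of the 20106 genes tested. Cdkn1a rose by 2.48 ± 0.33 (log2, SE; adjusted p = 3.08e-05) and Ccng1 by 2.28 ± 0.26 (adjusted p = 8.56e-06). The third was Eda2r, at least 11.3-fold higher than the floor of 3 counts per library in the zygotes, where it had 0 counts. Without early 2-cell DMSO replicate 1 the remaining library had 0.86 FPKM of Eda2r, under the cutoff, and 2 members were called up. Bax changed by -2.41 ± 0.42 (adjusted p = 0.000341). Trp53inp1 was 0.65 ± 0.09 higher (adjusted p = 3.95e-05), under 2-fold, and it was 0.63 lower with counts scaled to mitochondrial transcripts. That scaling shifted the median over genes at 1 FPKM or more by -1.27 and changed the split of all calls from 2257 up and 3002 down to 1283 up and 7938 down. Bbc3 had 15 counts in the early 2-cell libraries and 1 in the zygotes, a ratio of 22.1 (95% exact interval 3.4 to 929, counting error only).

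From early to late 2-cell DMSO embryos edgeR called 0 of 9 members, with 3 at an unadjusted p under 0.05 and 0 called by DESeq2, against 15.9% of 20326 genes called up and 8.92% called down. Cdkn1a was 0.87 higher (log2, adjusted p = 0.0179) and Mdm2 0.43 higher (adjusted p = 0.0149), both under 2-fold. Trp53 changed by -0.84 (adjusted p = 0.0466), and was past 2-fold at -1.13 without early 2-cell DMSO replicate 1 and at -1.01 without late 2-cell DMSO replicate 1. The late 2-cell DMSO groups of the 2 experiments, set against each other, gave 0 of 9 members called with 1 at an unadjusted p under 0.05 and 0 called by DESeq2, where 1.32% of 20647 genes were called.

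In zygotes, A-485 left the p53 response genes without a detected change. None of the 7 members tested was called by edgeR or DESeq2 and 0 had an unadjusted p under 0.05, against 0.00548% of 18258 genes called up and 0.0657% called down. The median log2 change of these 7 was 0.039, beside -0.005 for all genes tested.

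In early 2-cell embryos Cdkn1a alone was called among the members, and it fell. By edgeR 1 of 9 members was called down and 0 up, against 7.9% of 20872 genes down and 0.402% up. DESeq2 also called 1 down and 0 up, and 0 members were higher at an unadjusted p under 0.05. Cdkn1a changed by -1.51 ± 0.37 (log2, SE; edgeR adjusted p = 0.019). Its A-485 replicates differed from each other, and without A-485 replicate 2 the change was -1.05 (adjusted p = 0.0776). The median of the 9 members was -0.455, beside 0.004 for all genes tested.

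In late 2-cell embryos Mdm2 and Cdkn1a were lower and Ccng1 was higher than in DMSO embryos. Of 9 members 1 rose and 2 fell, against 10.5% of 22822 genes up and 16.8% down. Mdm2 changed by -1.14 ± 0.12 (log2, SE; edgeR adjusted p = 1.03e-05). Cdkn1a changed by -1.12 ± 0.37 (adjusted p = 0.0328), and this call was the least firm. It was kept in 7 of 13 alternative analyses, with changes from -1.72 to -0.67 and adjusted p from 0.000241 to 0.144, and was lost without DMSO replicate 1, DMSO replicate 2 or A-485 replicate 2, at -0.97, -1.21 and -0.67. Ccng1 rose by 1.06 ± 0.22 (adjusted p = 0.00278). The median of the 9 members was 0.21, beside 0.28 for all genes tested and 0.015 for those at 1 FPKM or more. The mitochondrial share of these A-485 libraries was the highest of all, and scaling to mitochondrial transcripts, with a median shift of -0.63 and a change in the split of calls from 2406 up and 3824 down to 1517 up and 5558 down, left Ccng1 at 0.42 (adjusted p = 0.307). Scaling to total counts left Mdm2 at -0.95, just under 2-fold.

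Btg2 and Bax were not called in late 2-cell A-485 embryos. Btg2 was at -0.76 ± 0.35 (log2, SE; edgeR adjusted p = 0.107), with DMSO replicates of 20.0 and 11.3 CPM that differed as much as the groups, and was called at -1.09 without DMSO replicate 2 and at -1.01 without A-485 replicate 1. Bax was at -0.94 ± 0.67 (adjusted p = 0.294).

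Under TSA, Cdkn1a, Ccng1, Btg2, Bbc3 and Eda2r rose and Bax fell. This is 5 of 9 members up and 1 down against 13.8% of 23429 genes up and 13.9% down. The median log2 change of the 9 members was 1.45, beside 0.13 for all genes tested and -0.031 for those at 1 FPKM or more. The members were chosen with earlier results of these data known, so these counts describe the 10 genes and are not an independent test of a p53 response.

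Btg2 rose by 2.99 ± 0.11 (log2, SE; edgeR adjusted p = 1.05e-08), Ccng1 by 2.18 ± 0.13 (adjusted p = 2.55e-07) and Cdkn1a by 1.61 ± 0.14 (adjusted p = 4.19e-06). Per length, the mean FPKM of TSA embryos was 50.1 for Btg2, 37.5 for Ccng1 and 36.6 for Cdkn1a, next below Mdm2 at 77.4 and Trp53inp1 at 55.3. Of the apoptosis genes, Eda2r rose by 3.46 ± 0.30 (adjusted p = 4.65e-06) and Bbc3 by 1.45 ± 0.35 (adjusted p = 0.00609). Bax changed by -2.32 ± 0.40 (adjusted p = 0.000736). The direction and call of Cdkn1a, Ccng1, Btg2, Eda2r and Bax were kept in all 65 alternative analyses of these 5 changes, 13 for each gene. Bbc3 was not called when all 16 libraries shared 1 fit (adjusted p = 0.109).

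The p53 gene and its regulator did not rise with these targets. Mdm2 was at -0.96 ± 0.09 under TSA (log2, SE; edgeR adjusted p = 9.56e-06), just short of a 2-fold change, and was past it at -1.05 without TSA replicate 2. Trp53 was at -0.78 ± 0.24 (adjusted p = 0.0226), and at -1.0 without DMSO replicate 2, where it was called. Trp53inp1 was at -0.28 ± 0.07 (adjusted p = 0.00809) and at 0.07 with scaling to total counts, where the median over genes at 1 FPKM or more shifted by 0.36 and the split of calls went from 3237 up and 3247 down to 4106 up and 2385 down. RNA of these pools of embryos is measured per library and relative to the library size. A change in some of the embryos and a smaller change in all of them cannot be told apart, and RNA per embryo is not given.

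**Figure D3:**
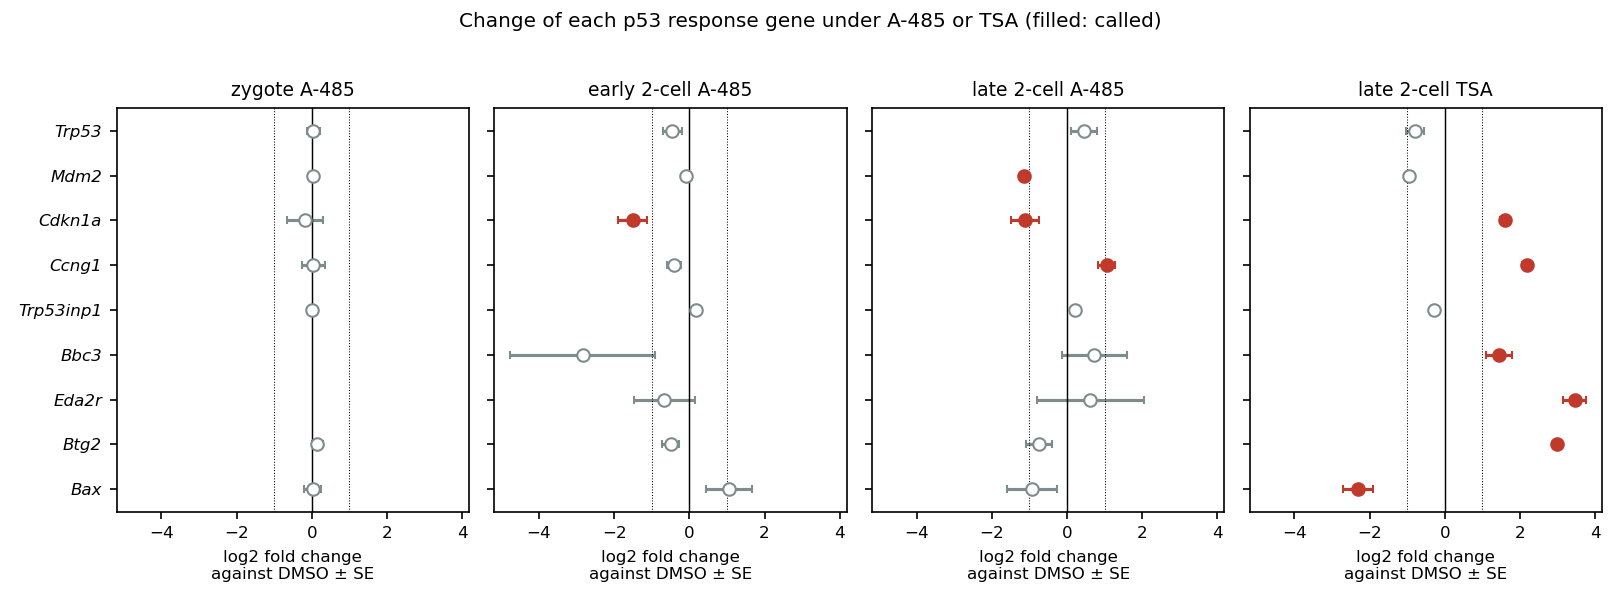
Log2 fold change (horizontal axis, treated against DMSO, points with ± SE bars) of the tested p53 response genes in the 3 A-485 comparisons and the TSA comparison, with called genes filled. Under TSA, Btg2 (2.99), Eda2r (3.46) and Ccng1 (2.18) lie farthest to the right and Bax (-2.32) to the left.

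The A-485 effect was then set against itself at the 2 stages, and against the TSA effect at the late 2-cell stage, each as 1 interaction in a fit of 8 libraries. The late A-485 effect on Ccng1 was above the early one by 1.55 ± 0.31 (log2, SE; edgeR adjusted p = 0.00056), and by 0.92, under 2-fold, with mitochondrial scaling. This was 1 of 9 members above and 0 below, against 8.39% and 7.46% of 25141 genes. For Mdm2 the difference was -0.97 ± 0.16 (adjusted p = 4.94e-05), just short of 2-fold and past it with DESeq2 at -1.06. For Cdkn1a it was 0.47 ± 0.55 (adjusted p = 0.639), so the early and late falls of Cdkn1a were not told apart.

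The A-485 and TSA effects were called different for Btg2, Cdkn1a and Ccng1. The A-485 effect was below the TSA effect for 3 of 9 members and above it for 0, against 11.0% and 2.98% of 26554 genes. At an unadjusted p under 0.05, 4 of 9 members were below and 2 above. DESeq2 called 1 member above, Trp53, beside 1066 of all genes. For Eda2r, which had few counts outside TSA, the A-485 effect was 7.85-fold below the TSA effect and was not called. The difference was -3.86 ± 0.33 for Btg2 (log2, SE; edgeR adjusted p = 1.5e-07), -2.83 ± 0.37 for Cdkn1a (adjusted p = 1.88e-05) and -1.23 ± 0.24 for Ccng1 (adjusted p = 0.00107). Ccng1 rose under both inhibitors and Cdkn1a fell under one and rose under the other. For Mdm2 the difference was -0.29 ± 0.15 (adjusted p = 0.224). For Trp53 it was 1.13 ± 0.42 (adjusted p = 0.0784). The 2 inhibitors were given at different times and compared with different controls.

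The unit of the values changed what was read for Bax. RSEM assigns each library its own effective length of a gene from the transcripts it counts, and for Bax this length was 679 and 699 bases in late 2-cell DMSO libraries against 336 and 345 bases under A-485. Bax counts were 50 and 50 against 17 and 23, and its CPM 2.31 and 2.65 against 1.19 and 1.45. Its FPKM was 3.19 and 3.72 against 3.83 and 4.47, higher instead of lower. With the effective length as an offset, an analysis chosen after the data were seen, the Bax difference was 0.07 in place of -0.94. Under TSA the effective length of Bax was 788 and 735 bases against 750 and 738 in DMSO, and Bax was lower in both units. Bax overlaps the gene model Gm45808, which had 0 to 14.84 counts, and the strand setting of the counting is not given in the sources used here.

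**Figure D4:**
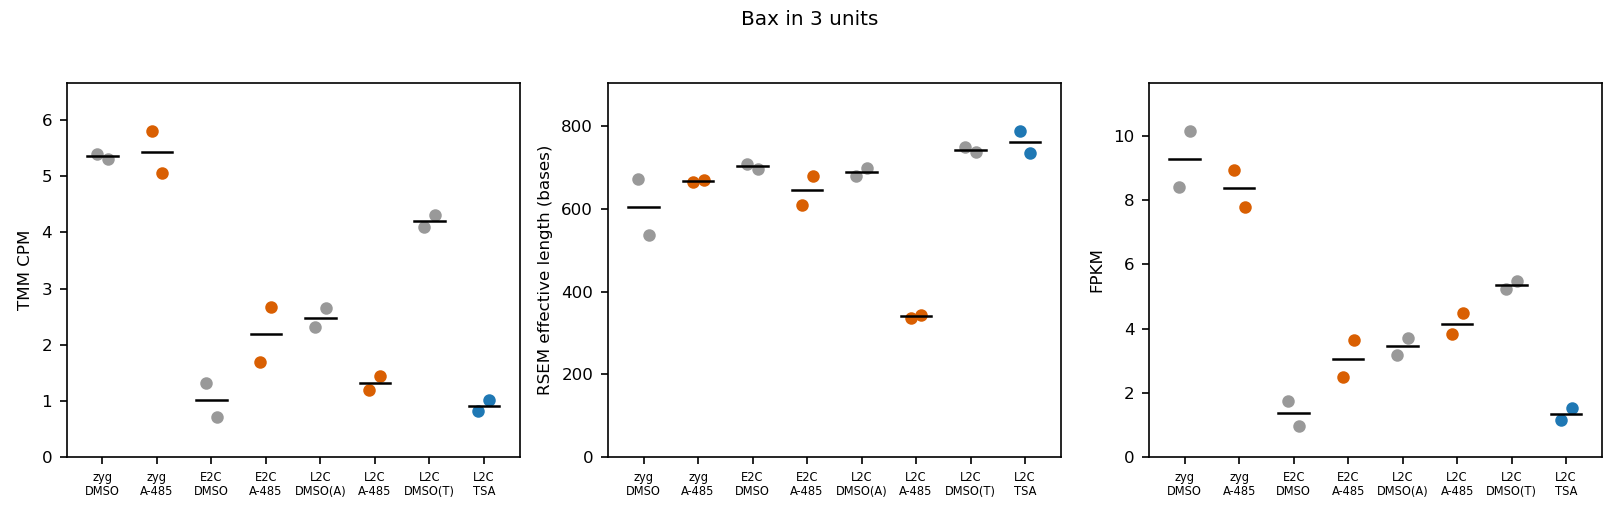
Bax in the 2 libraries of each group (points) in CPM, in FPKM and as RSEM effective length in bases. In late 2-cell A-485 embryos CPM is below the DMSO libraries while FPKM is above them and the effective length is 336 and 345 bases.

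Relatives of the changed genes did not all move with them. Of the other CDK inhibitors, Cdkn1b (p27) rose by 2.05 ± 0.27 in late 2-cell A-485 embryos (log2, SE; edgeR adjusted p = 7.11e-05), where Cdkn1a fell, and was at 0.62 under TSA (adjusted p = 0.118). Cdkn1c (p57) rose by 4.07 ± 0.11 under TSA (adjusted p = 2.6e-09) from 8.67 and 8.71 CPM to 163 and 156 CPM. Cdkn2d was lower by A-485 at both 2-cell stages (-2.43 and -2.27, adjusted p = 0.000328 and 0.000337). In the BTG and TOB family, Btg4, an oocyte gene of maternal RNA decay, was far the most abundant at up to 2810 FPKM and was called in 0 of the 4 comparisons. Tob1 fell under A-485 at the early and late 2-cell stages (-2.53 and -1.48), and Tob2 fell under late A-485 and TSA (-2.41 and -1.59), whereas Btg2 rose under TSA. Ccng2, the relative of Ccng1, was 0.86 ± 0.11 higher under TSA (adjusted p = 0.000113), under 2-fold. Phlda1, a relative of Phlda3, fell in early 2-cell A-485 embryos (-1.51) and rose under TSA (1.52), while Phlda2 fell under TSA (-1.01). Cdkn2c and Btg1 fell in early 2-cell A-485 embryos (-2.10 and -1.60), Edar, a relative of Eda2r, rose under TSA (2.57), and Cdkn2b, Btg3 and Trp53inp2 were called in none of the 4 comparisons.

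The wider pathway was described with 95 further genes in lists of p53 regulators, other targets, the BCL2 family and caspases, and the families above. In zygotes edgeR called 0 of 87 tested under A-485, with 1 at an unadjusted p under 0.05. In early 2-cell A-485 embryos 17 of 90 fell and 0 rose, against 7.9% of all genes tested down and 0.402% up, with 9 of the 90 higher at an unadjusted p under 0.05 and a median log2 change of -0.19 beside 0.004 for all genes. In late 2-cell A-485 embryos 7 of 91 rose and 27 fell, against 10.5% of all genes up and 16.8% down, with a median of -0.25 beside 0.28. Under TSA 16 of 95 rose and 19 fell, against 13.8% and 13.9% of all genes, with a median of 0.06 beside 0.13. Of the 23429 genes tested under TSA, 16048 reached 1 FPKM and could be called. Shares among these callable genes would therefore be higher than 13.8% and 13.9%. Over genes at 1 FPKM or more the median log2 change was -0.011 in early A-485, 0.015 in late A-485 and -0.031 in TSA embryos.

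Among 20 regulators of p53, 3, 9 and 8 were called down and 0, 1 and 1 up in early A-485, late A-485 and TSA embryos. Of all genes tested, 7.9%, 16.8% and 13.9% were down and 0.402%, 10.5% and 13.8% up. The median log2 change of the regulators was 0.05, -0.49 and -0.32, beside 0.004, 0.28 and 0.13 for all genes. For genes at 1 FPKM or more it was -0.011, 0.015 and -0.031. Sirt1, a deacetylase of p53, went from 602 and 509 CPM to 35.5 and 41.4 in late A-485 embryos, a 14.8-fold fall, and from 545 and 617 CPM to 84.6 and 82.5 under TSA, a 7.61-fold fall. Hdac1, a target of TSA, fell 8.38-fold in early and 8.97-fold in late A-485 embryos, and it also fell under TSA (-1.10 on the log2 scale). Ep300, which encodes p300, fell 4.49-fold under TSA, from 1070 and 1020 CPM to 259 and 252, and it also fell in late A-485 embryos (-1.92 on the log2 scale). The regulator that rose in late A-485 embryos was Cdkn2a, from 0.185 and 0.847 CPM to 3.85 and 3.48. It also rose under TSA (2.05 on the log2 scale). The Mdm2 inhibitor ARF is among the products of Cdkn2a, and counts per gene do not tell which of its transcripts rose.

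The other targets in arrest, repair and metabolism had 5 of 24 down and 0 up in early A-485 embryos, 3 of 23 up and 6 down in late A-485 embryos, and 7 of 26 up and 4 down under TSA. The shares of all genes tested were 7.9% down and 0.402% up, 10.5% up and 16.8% down, and 13.8% up and 13.9% down. Sesn2, a stress gene that restrains mTORC1, fell 13.8-fold in early A-485 embryos (62.6 and 55.4 to 5.05 and 3.91 CPM) and 20.4-fold in late ones, and it also fell under TSA (-1.47 on the log2 scale). Gadd45a, Plk2 and Sfn fell in early A-485 embryos by 3.52-, 2.90- and 3.20-fold, and Plk3 fell 10.4-fold in late ones. Sfn also fell in late A-485 embryos (-2.01 on the log2 scale), while Plk2 and Sfn rose under TSA (1.58 and 1.01). Zmat3, an RNA-binding target of p53, rose 5.85-fold in late A-485 embryos. Tigar and Gtse1 fell under late A-485 (8.91- and 6.80-fold) and TSA (5.61- and 5.38-fold). Under TSA the receptor kinase gene Epha2 rose 26.8-fold and the thiamine transporter gene Slc19a2 11.7-fold.

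Of the other apoptosis targets, 2 of 12 fell in early A-485 embryos, 1 of 12 rose and 6 fell in late A-485 embryos, and 4 of 13 rose and 3 fell under TSA. Apaf1, the core of the apoptosome, fell 7.09-fold under TSA while Tnfrsf23, a decoy receptor, rose 15.3-fold and Casp6 5.48-fold. In late A-485 embryos Apaf1 fell (-1.52 on the log2 scale) and Casp6 rose (1.56). The BCL2 family and caspases had 2 of 19 down in early A-485 embryos, 1 of 20 up and 3 down in late ones, and 1 of 20 up and 2 down under TSA. For both lists the shares of all genes tested were 7.9% down in early A-485 embryos, 10.5% up and 16.8% down in late ones, and 13.8% up and 13.9% down under TSA, so several of these counts lie near or below them. The survival gene Mcl1 fell in all 3 comparisons of 2-cell embryos, by 2.31-, 5.51- and 5.39-fold. The BH3-only gene Bmf rose 10.6-fold under TSA.

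**Figure D5:**
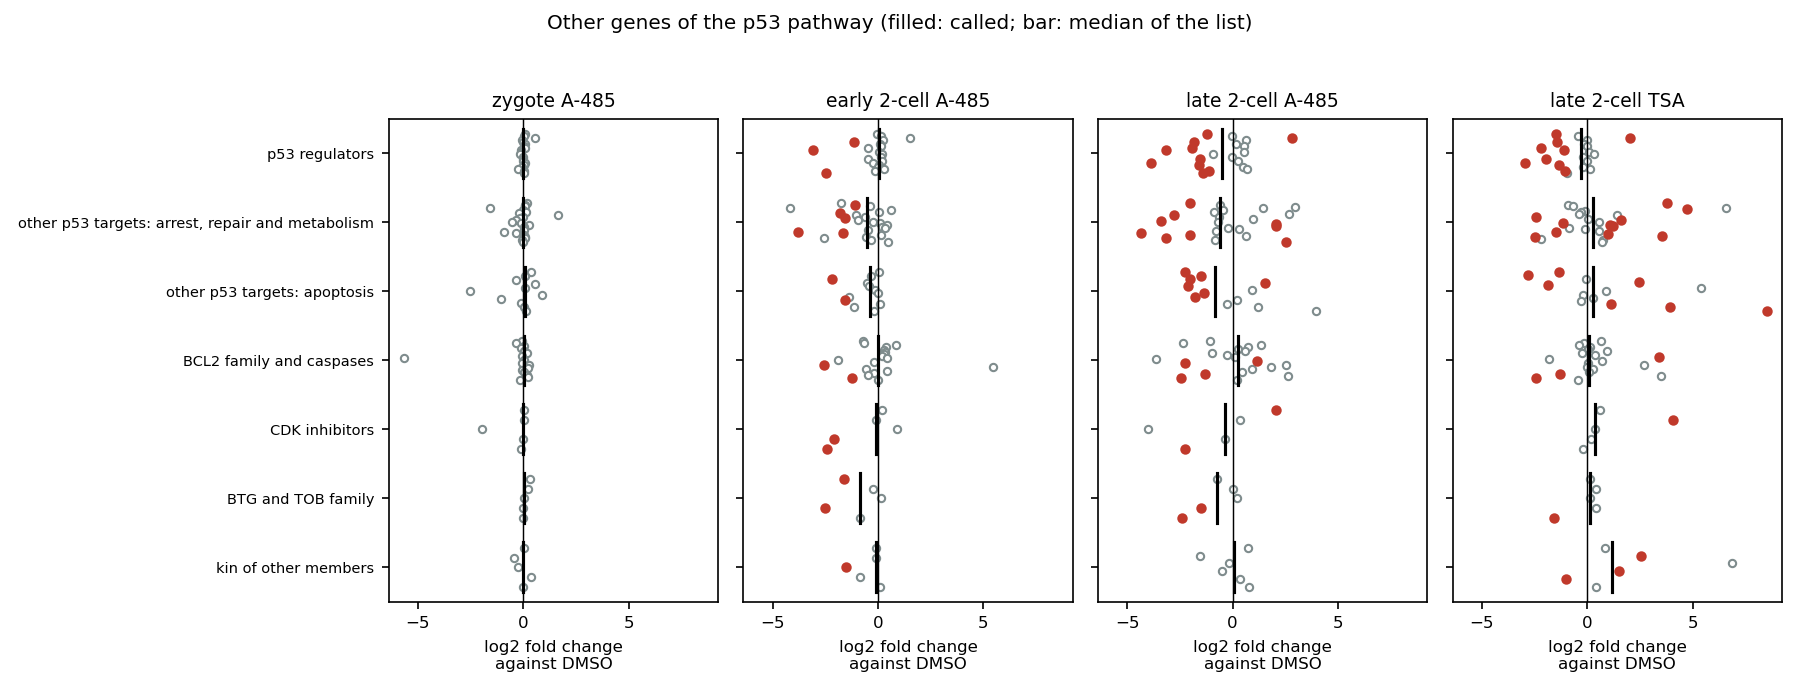
Log2 fold change (horizontal axis) of each tested gene of the pathway lists (points, 1 row per list) in the 4 treatment comparisons; filled points are called genes. The points beyond 5 on either side are 6 genes with 0 counts in one of the groups, whose fitted change is no bound.

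Finally, genes were ranked by the likeness of their pattern over the 8 group means, as Pearson's r of log2(FPKM + 0.1) among 9898 genes at 5 FPKM or more in at least 1 group. For Cdkn1a the closest were Usp25 (r = 0.998), Bcl10 (0.995) and Lzts3 (0.993). For Mdm2 they were Scaf4 (0.981), Taf9 (0.978) and Zswim1 (0.974), and for Trp53 they were Bcap29 (0.968), Cc2d1a (0.959) and Cenpk (0.959). The 8 points share libraries, depth and stage, and these values are a description.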

How the data were processed

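Total RNA-seq libraries were prepared with a stranded SMART-Seq kit. The authors trimmed reads with Trimmomatic 0.39, aligned them to GRCm38 with STAR 2.7.8a and counted genes with RSEM 1.3.1. The deposited files hold RSEM expected counts per gene and library, which need not be whole, and FPKM values that the authors computed from them with a per-library effective length. The strand setting and annotation release are not given in the sources used here. The ATAC-seq peak lists were deposited with a signal column that the authors' pipeline gives as fold enrichment, 1 list per stage and treatment for its 2 replicates together. Their build was taken from the labels, which list GRCm38, and lines at identical positions were joined.

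Gene identifiers without version were matched to GENCODE M21 symbols for 55144 of 55385 genes. The depth per library was 13206163 to 32585987 expected counts. Expected counts were rounded, genes with under 10 counts summed over the libraries of a fit were left out, and edgeR 4.0.16 (R 4.3.3) fitted its quasi-likelihood model with TMM scaling to the 4 libraries of a comparison or the 8 of an interaction. A called gene had a Benjamini-Hochberg adjusted p under 0.05, a change of at least 2-fold and, outside interactions, a mean of 1 FPKM in either group. Outside interactions, genes under 1 FPKM could not be called but were counted in the shares of all genes tested. Standard errors were the log2 fold change divided by the square root of the F statistic. Alternatives included DESeq2 1.42.0, other scalings, filters and fits, and leaving out each library. Scripts were tested on simulated data. The ratio of Bbc3 counts has an exact interval and, like the floors of 3 counts, covers counting error only.

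The 10 genes, the lists of other pathway genes and the tests were chosen with earlier results of these data known. Named list genes were the called genes with at least 3 FPKM on average in the higher group whose libraries did not overlap, at most 12 per comparison by size of change (1 of them is not reported here), while relatives were taken at 1 FPKM or more. Tested fold changes are printed for the members for which they were followed through all alternatives. The Eda2r difference between A-485 and TSA is printed without that. H3K27ac profiles of the same series were not used here.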

Additional observations from a re-analysis of the deposited data

Results flagged for a closer look

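Effects differed between stages or inhibitors for 3 of the 9 members tested by edgeR's interaction test with Benjamini-Hochberg adjustment. Of all genes tested, 8.39% were above and 7.46% below for late against early A-485. For A-485 against TSA, 2.98% were above and 11.0% below. The A-485 effect on Ccng1 was above its early 2-cell value at the late 2-cell stage by 1.55 on the log2 scale (adjusted p = 0.00056). Against the TSA effect, the late A-485 effect was different by -3.86 for Btg2 (adjusted p = 1.5e-07), by -2.83 for Cdkn1a (adjusted p = 1.88e-05) and by -1.23 for Ccng1 (adjusted p = 0.00107). Each comparison rests on 8 libraries, and the A-485 and TSA effects have separate controls. Groups of 2 libraries are too small for a test of single outlying samples.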

How the results depend on the processing

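Of 414 alternative values of the 30 fold changes followed, 375 kept their direction and their side of the threshold. With 2 libraries per group, calls near 2-fold move with a single library. Scaling to mitochondrially encoded genes took the called genes to 1517 up in late A-485 embryos, 1283 up and 7938 down between zygotes and early 2-cell embryos, 1257 above and 3518 below for late against early A-485, and 432 above and 4419 below for A-485 against TSA. Members called then were 0 up in late A-485 embryos, 4 down between zygotes and early 2-cell embryos, and 0 above and 1 below for late against early A-485. With this scaling Trp53inp1 turned to -0.63 from zygotes to early 2-cell embryos and Cdkn1a to -0.12 in late against early A-485. With total counts, 0 members were down in late A-485 embryos, beside 3435 of all genes, and Trp53inp1 under TSA turned to 0.073.

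DESeq2 called 0 genes up in zygotes and 1 member down in late A-485 embryos, beside 3599 of all genes. It called 1 member below for late against early A-485, beside 2028 genes, and 1 above for A-485 against TSA, beside 1066 genes. Its size factors in edgeR, and 1 fit of all 16 libraries, gave the same 1 below and 1 above. Of all genes, 2066 and 2337 were then below, and 1008 and 818 above. Without a filter on low counts there were 10 up and 29 down in zygotes, 137 up in early A-485 embryos, and 75 and 378 between the controls. This setting had 1 member below for late against early A-485, beside 2061 of all genes. The fit of all 16 libraries called 4 up and 22 down in zygotes. Without the FPKM cutoff 161 rose in early A-485 embryos. The effective length offset, chosen after the data were seen, called 0 up and 3 down in zygotes and 14 and 73 between the controls. It called 0 members down in early and 1 in late A-485 embryos, beside 1454 and 3569 of all genes. It also turned Bax in late A-485 embryos to 0.066.

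The replicate block, for which replicate numbers need not mark shared cultures, called 7 up and 32 down in zygotes and 79 up between the controls. Deviations of same-numbered libraries correlated at 0.053, -0.027, -0.036 and 0.119 in the 4 treatment comparisons.

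Leaving out 1 library at a time gave 6 to 11 genes up and 13 to 45 down in zygotes, 41 to 98 up and 171 to 426 down between the controls, and 475 to 776 above for A-485 against TSA. In these runs Cdkn1a ranged from -2.17 to -1.05 (log2) in early A-485 embryos and from -1.7 to -0.67 in late ones. Btg2 in late A-485 embryos ranged from -1.09 to -0.25. Under TSA, Mdm2 ranged from -1.05 to -0.85 and Trp53 from -1.0 to -0.52. From early to late DMSO embryos, Trp53 ranged from -1.13 to -0.48. The Mdm2 difference of late against early A-485 ranged from -1.3 to -0.85. The Trp53 difference of A-485 against TSA ranged from 0.88 to 1.38. All of these ranges but that of early Cdkn1a crossed 2-fold. The Cdkn1a difference of late against early A-485 ranged from -0.11 to 1.09, and was -0.03 without early A-485 replicate 2. In the ATAC-seq lists, taking the 7094 strongest peaks of each left 1 member with a peak in early 2-cell DMSO and 4 in A-485 embryos. Of all 22015 genes, 9.0% and 24.68% then had such a peak.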
